A study of Caenorhabditis elegans with 6 samples.

Results

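The right arm of chromosome II was taken as the windows of about 1 kb with a midpoint from 12 Mb to 100 kb before the end of the chromosome in the ce10 assembly of *Caenorhabditis elegans*. It held 3179 of the 100293 windows of the genome and ran from position 12000327 to 15179297, a length of 3.18 Mb. Of these windows, 3150 were 1000 bp wide and 29 were 1 bp narrower, and 27 had no read in any library, which left 3152. The arm was set against the centre of the same chromosome, from 4.7 Mb to 12 Mb, with 7293 windows with reads. Position alone chose the windows.

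Muscle cells of the body wall, sorted by FACS from L3 larvae, were profiled by ChIC-seq, in which chromatin is cleaved where an antibody binds. The antibody against a histone mark brings a protein A and micrococcal nuclease (MNase) fusion to chromatin, and the DNA cut nearby is sequenced. The animals were N2 (Bristol) wild type (WT) and *met-2(n4256) III* mutants at the same larval stage, with no treatment given in the labels. H3K9me2, H3K9me3 and H3K27ac were profiled in WT, H3K27ac also in *met-2*, and each genotype had an MNase control without antibody. Each of these 6 groups was 1 library, so the spread between replicates is unknown for every difference. According to the study, muscle cells were sorted on RFP driven by the *myo-3* promoter, a reporter that the sample labels leave out. Its ChIC-seq methods describe cells fixed in ethanol and gated on Hoechst, and do not name the RFP gate at that step. The muscle identity of the cells was not checked here, since the windows carry no gene names.

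The chromosomes of *C. elegans* are holocentric, and their autosomes have gene-dense, active central parts and repeat-rich arms that tend to lie at the nuclear periphery. In these arms nucleosomes often carry methylated H3K9, a heterochromatin mark that MET-2, a SETDB1-like methyltransferase, contributes to mainly as mono- and dimethylation, while SET-25 places the third methyl group. H3K27ac is found at active promoters and enhancers. The profiles bear on 2 questions, where the methyl marks and the acetyl mark lie along an arm in a differentiated tissue, and how H3K27ac along it differs in animals without MET-2.

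The library totals ranged from 2475550 reads in the *met-2* control to 28519008 reads for H3K9me3. In WT the median arm window had 191 H3K9me2, 240 H3K9me3 and 112 H3K27ac reads, and in *met-2* it had 210 H3K27ac reads. The median was 76.5 control reads in WT and only 20 in *met-2*, so values over the latter were the least precise. Counts are given below as scaled reads, that is, as if every library held the average of 16977530 reads. Enrichment is the log2 of scaled reads plus 8 minus the same value in that genotype's own MNase control, and values above 0.5, a 1.41-fold excess, were called enriched. All intervals of reads cover counting error only.

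In WT muscle the clearest property of the arm was its low H3K27ac. The arm made up 30.2% of the windows of arm and centre together but held 23.8% of their WT H3K27ac reads (95% Wilson interval 23.7% to 23.8%). Its mean scaled H3K27ac reads were 150 per window against 208 in the centre, a ratio of 0.721. The mean of the WT control was 180 in the arm and 185 in the centre, a ratio of 0.971, so the control without antibody was nearly level between them. The *met-2* control was not level, with a ratio of 0.822. Over the WT control the median H3K27ac enrichment was 0.06 in the arm and 0.46 in the centre. In the arm 1050 windows (33.3%) were called enriched, against 48.4% in the centre and a background of 41.8% of all windows of the genome. Over both controls at once, 12.3% of arm windows and 18.3% of centre windows were enriched, with 15.7% of all windows. This arm-to-centre difference of -0.41 in the median fell to -0.16 when the *met-2* control took the place of the WT control, with the same direction.

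The H3K9 methyl marks were also less abundant in reads in the arm than in the centre, but by less than H3K27ac. The ratio of mean scaled reads was 0.913 for H3K9me2 and 0.873 for H3K9me3. Over the WT control the median H3K9me3 enrichment was 0.13 in the arm and 0.21 in the centre, and the median H3K9me2 enrichment was 0.07 and 0.18. In the arm 1120 windows (35.5%) were enriched for H3K9me3, against 37.9% in the centre and 42.7% of all windows. For H3K9me2 the count was 1032 (32.7%), against 35.8% in the centre and 36.1% of all windows. These small deficits of the arm had no settled direction. With the *met-2* control the arm exceeded the centre by 0.12 for H3K9me3 and by 0.09 for H3K9me2, and over both controls at once the share enriched was larger in the arm, 13.5% against 11.1% for H3K9me3 (16.2% of all windows) and 15.7% against 13.1% for H3K9me2 (14.4% of all windows).

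The balance between the marks could be read without any control, from the WT libraries alone. The log2 ratio of H3K9me3 to H3K27ac had a median of 0.03 in the arm and -0.25 in the centre, a difference of 0.29. In the arm 459 windows (14.6%) had a ratio above 0.5, against 3.22% of centre windows and 17.2% of all windows of the genome. The ratio of H3K9me2 to H3K27ac had a median of -0.05 in the arm and -0.30 in the centre. H3K9me2 against H3K9me3 differed little, with medians of -0.10 and -0.06. Relative to acetylation, both methyl marks were thus more abundant in the arm than in the centre, while relative to the control they were not consistently so.

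Whether reads were more unevenly spread in the arm depended on the measure. The standard deviation of log2 scaled reads across windows was larger in the arm than in the centre in all 6 libraries, from 0.79 against 0.65 for H3K9me3 to 1.27 against 1.06 for the WT control. The 1% of windows with the most reads held 6.57% of the H3K9me2 reads of the arm, against 5.65% in the centre, but in the other 5 libraries that share was lower in the arm, for H3K9me3 3.19% against 3.95% and for the WT control 6.98% against 7.78%. The highest H3K9me2 window had 2539 reads and the highest H3K9me3 window 1988. Across arm windows the Spearman correlation of scaled reads was 0.59 between H3K9me2 and H3K9me3, 0.78 between H3K9me3 and WT H3K27ac and 0.55 between H3K9me2 and WT H3K27ac (n = 3152 windows). It was 0.49 between H3K9me3 and the WT control and 0.57 between H3K9me2 and the WT control, so both methyl marks also followed the library without antibody. Windows of 1 library share its depth and are not independent.

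**Figure D1:**
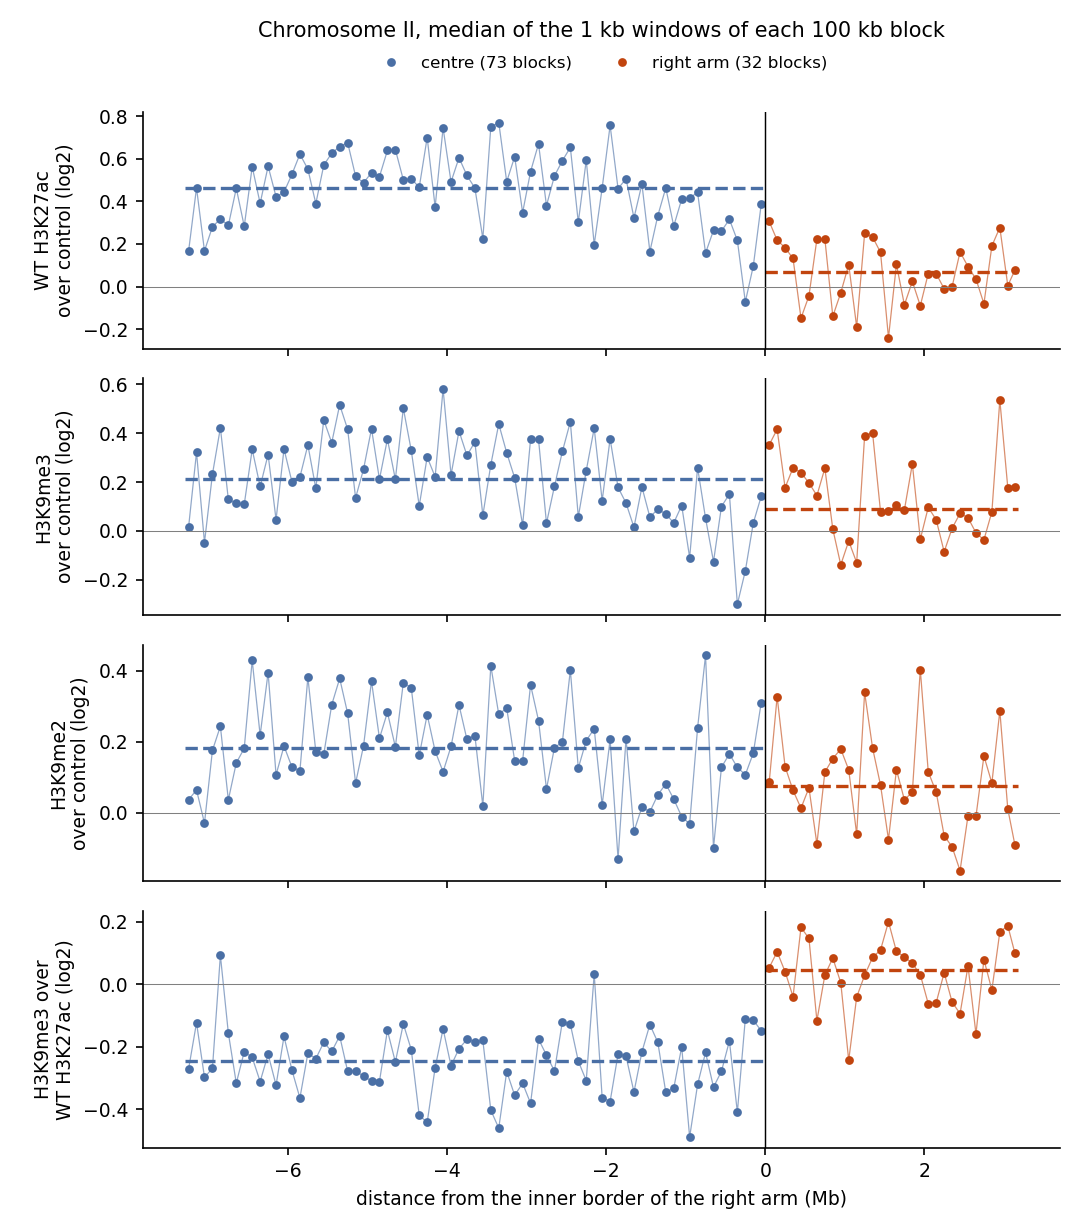
Each point is the median over the 1 kb windows of a 100 kb block of chromosome II, plotted against the distance from the inner border of the right arm in Mb, and dashed lines mark the median of the blocks. The panels show WT H3K27ac, H3K9me3 and H3K9me2 over the WT MNase control and the log2 ratio of H3K9me3 to WT H3K27ac reads. In the bottom panel 22 of 32 arm blocks and 2 of 73 centre blocks lie above 0.

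Along the arm, the 32 blocks of 100 kb varied in H3K9 methylation, as did the 73 blocks of the centre. The centre medians ranged from -0.30 to 0.58 for H3K9me3 and from -0.13 to 0.44 for H3K9me2. A block holds far fewer windows than the arm, and the sampling error of its median was not estimated. In the arm the block medians of H3K9me3 enrichment ranged from -0.14 (chrII:12900001-13000000) to 0.54 (chrII:14900001-15000000), and 25 of the 32 were above 0 on this scaling. For H3K9me2 they ranged from -0.16 (chrII:14400001-14500000) to 0.40 (chrII:13900001-14000000). The block with the highest median H3K9me2 enrichment thus had a median H3K9me3 enrichment of -0.03, and the highest blocks of the 2 marks were different ones. WT H3K27ac ranged from -0.24 (chrII:13500001-13600000) to 0.31 in the innermost block, next to the centre. In mean scaled WT H3K27ac reads, 22 of the 32 arm blocks lay below the lowest of the 73 centre blocks and all 32 lay below the median centre block. In *met-2* all 32 also lay below the median centre block.

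Sorting the windows by both methyl marks over the WT control gave 721 arm windows with H3K9me2 and H3K9me3 (22.9%, with 27.5% of all windows), 399 with H3K9me3 only (12.7%, with 15.2%) and 311 with H3K9me2 only (9.87%, with 8.58%). Of the windows with both methyl marks, 82.8% were also called for H3K27ac, against 96.5% in the centre and 85.2% over all windows. Of those with H3K9me2 only it was 18.0%, against 46.0% and 33.8%. All 3 calls used the same control, so a low control count raises all of them together. Over both controls 189 windows kept both methyl marks (6.00%, with 6.67% of all windows), 235 had H3K9me3 only (7.46%, with 9.55%) and 305 had H3K9me2 only (9.68%, with 7.77%). The share of H3K9me2-enriched windows also enriched for H3K9me3 was 69.9% over the WT control, against 72.5% in the centre and 76.2% over all windows. Over both controls it was 38.3%, against 37.3% and 46.2%.

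For each mark the 3 top and the 3 bottom arm windows were picked among those with at least 20 scaled reads on average, using whichever control gave the value nearer 0. The highest H3K9me3 values came from 2 windows near the distal end and 1 in the middle of the arm. Window chrII:14979300-14980299 had 104 H3K9me3 reads, with 2 reads in WT and 0 in *met-2* without antibody, an 18.0-fold ratio over the WT control (4.86 to 151). Nearby, chrII:14977300-14978299 had 142 H3K9me3 and 251 H3K9me2 reads against 8 and 2 control reads, and it was also the highest for H3K9me2 (13-fold over the WT control, 6.5 to 30.4). Window chrII:13164317-13165316 had 238 H3K9me3 and 107 WT H3K27ac reads with 4 reads in each control. The first and the third of these windows were also the 2 highest for H3K27ac, so they were windows where all antibodies exceeded a nearly empty control. The third highest for H3K27ac, chrII:13499314-13500313, had 124 H3K27ac reads, 284 H3K9me3 reads and 74 H3K9me2 reads against 16 and 5 control reads.

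The other windows highest in H3K9me2 were not equally high in H3K9me3. Window chrII:13691312-13692311 had 547 H3K9me2 reads but 118 H3K9me3 and 69 WT H3K27ac reads, against 24 and 5 control reads (9.44-fold over the WT control, 6.28 to 14.9). Window chrII:14879301-14880300 had 1307 H3K9me2 reads, 278 H3K9me3 reads and 107 H3K27ac reads against 26 and 16 control reads (20.8-fold, 14.1 to 32). In the opposite direction chrII:13893310-13894309 had 78 H3K9me2 reads against 365 H3K9me3 reads and 215 WT control reads (0.150-fold, 0.114 to 0.196). The other 2 lowest for H3K9me2, starting at 13699312 and 14572304, likewise had more H3K9me3 than H3K9me2 reads, 138 against 33 and 401 against 154.

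The lowest H3K9me3 windows were windows of high control. Window chrII:13406314-13407313 had 360 H3K9me3 reads, more than the arm median of 240, but 484 WT control reads and 98 *met-2* control reads (0.258-fold, 0.224 to 0.296). The other 2 began at 14015309 and 12443323, with 226 and 417 WT control reads. For H3K27ac the lowest was chrII:15058299-15059298, with 105 H3K27ac reads against 347 and 109 control reads, although it held 566 H3K9me3 reads. The next lowest, chrII:13895310-13896309, had 62 H3K27ac reads in WT against 408 WT control reads, and 228 reads in *met-2*. The third, starting at 14317306, had 58 WT and 152 *met-2* H3K27ac reads.

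Called over both controls at once, enriched windows formed short stretches. Over both controls, the 424 H3K9me3 windows lay in 348 runs of adjacent windows, of which 16 had at least 3 windows and the longest had 5. The 494 H3K9me2 windows lay in 396 runs, 19 of them with at least 3 windows. In the arm 30.4% of the H3K9me3 windows and 34.0% of the H3K9me2 windows touched another called window, against 29.4% and 33.7% in the centre. The longest H3K9me3 run, chrII:14321306-14326305, had 888 H3K9me3 and 424 H3K9me2 reads against 158 and 10 control reads. The run chrII:14976300-14980299 contained the highest windows described above, and chrII:13349315-13353314 had 1493 H3K9me3 reads against 168 and 52. The longest H3K9me2 runs had 5 windows each, chrII:12918319-12923318 with 2347 H3K9me2 and 1196 H3K9me3 reads and chrII:14759302-14764301 with 1349 and 955. The run chrII:13983309-13987308 was dense in both marks, with 4792 H3K9me2 and 4051 H3K9me3 reads against 646 WT control and 535 WT H3K27ac reads. Over the WT control alone the runs were longer, up to 11 windows for H3K9me3 and 7 for H3K9me2. By that call 67.6% of the 1120 H3K9me3 windows and 59.0% of the 1032 H3K9me2 windows touched another. In the centre it was 69.7% and 65.8%. A denser set of calls touches more often, which enters all these shares.

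In *met-2* muscle H3K27ac was higher along the arm and lower in the centre than in WT, each relative to its library. The arm held 2.78% of the WT H3K27ac reads and 2.92% of the *met-2* reads, a 1.05-fold ratio (exact interval 1.048 to 1.056). The centre went from 8.91% to 8.45%, a ratio of 0.948 (0.945 to 0.95). From the reads alone, without controls, the median change per window, *met-2* minus WT on the log2 scale, was 0.08 in the arm, -0.06 in the centre and 0.01 over all windows. The difference of 0.14 between arm and centre was small, and it stayed between 0.13 and 0.15 under the 7 alternatives tried. Those alternatives that only rescale whole libraries shift arm and centre nearly alike, so they could hardly move it. The arm remained the poorer in H3K27ac in *met-2*, at 0.801 of the centre's mean scaled reads instead of 0.721. In both parts the H3K27ac reads varied less between windows in *met-2* than in WT. The standard deviation of log2 scaled reads was 0.81 against 0.86 in the arm and 0.67 against 0.70 in the centre. What part this has in the change was not tested.

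The size of the change varied widely between windows. In the arm 396 windows (12.6%) had a change above 0.5, against 1.92% in the centre and a background of 7.16% of all windows. Below -0.5 lay 75 arm windows (2.38%), against 3.76% in the centre and 3.07% of all windows. The exact counting interval of the ratio lay above 0 for 382 of the 396 and below 0 for 70 of the 75. It uses the same counts that chose these windows, so this adds no separate support for the calls. In the centre the counts were 132 of 140 and 264 of 274. Without a threshold on the size, the interval lay above 0 in 22.0% of arm windows, against 7.67% in the centre and 15.5% of all windows, and below 0 in 9.45%, against 19.5% and 13%. The upper tail reached further than the median, with an upper decile of 0.56 in the arm and 0.26 in the centre. With counts summed to 10 kb, 4 of 318 arm regions and 0 of 730 centre regions were above 0.5, but 67.0% of the arm regions and 23.3% of the centre regions were above 0.

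**Figure D2:**
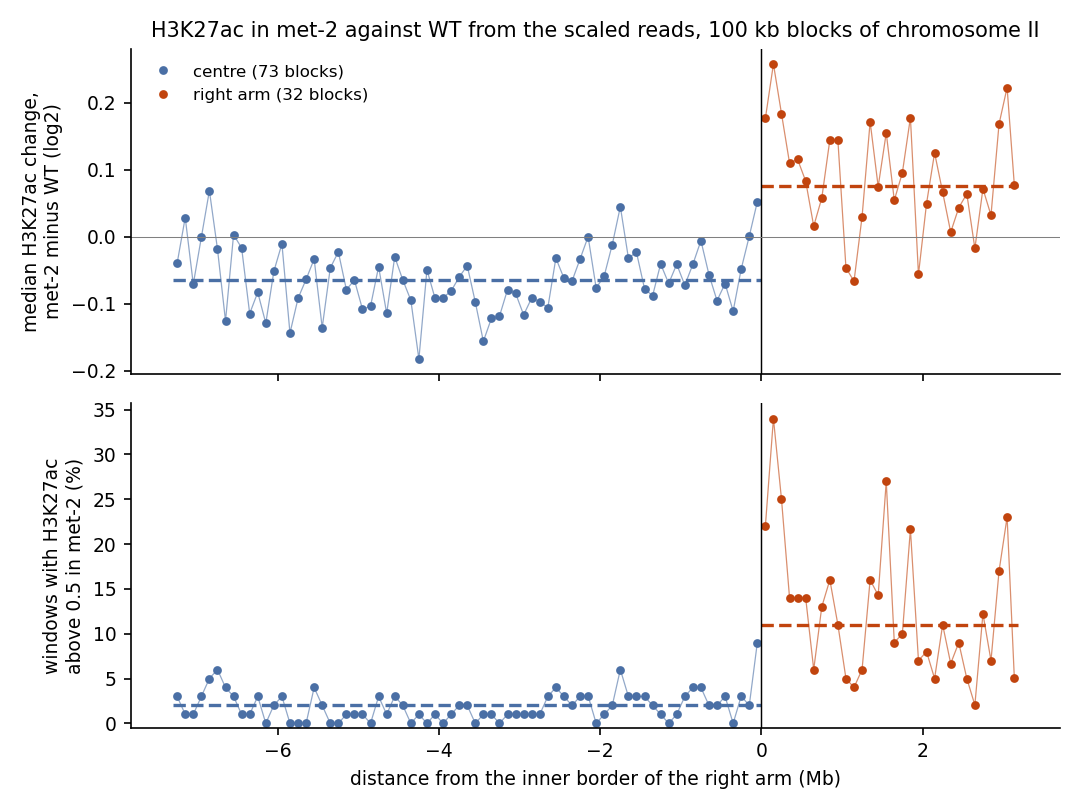
For the 100 kb blocks of chromosome II, the upper panel plots the median log2 change in scaled H3K27ac reads, *met-2* minus WT, and the lower panel the percentage of 1 kb windows with a change above 0.5, against the distance from the inner border of the arm in Mb. Dashed lines mark the median of the blocks, and the share of windows above 0.5 runs from 2.04% to 34.0% in arm blocks and from 0% to 9.0% in centre blocks.

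The change was present from the innermost block on and was uneven along the arm. The median change was above 0 in 28 of the 32 arm blocks and in 6 of the 73 centre blocks. The share of windows above 0.5 was higher in 18 of the 32 arm blocks than in the highest centre block, and that centre block, at 9.0%, was the one that touches the arm. Over all windows of the genome this share was 7.16%. From the inner border outward it was 16.9%, 12% and 9.33% in the successive megabases, the last of them 1157 windows long. It peaked at 34.0% in chrII:12100001-12200000, which also had the highest median change (0.26) and no window below -0.5, and was lowest at 2.04% in chrII:14600001-14700000. Further high blocks were chrII:13500001-13600000 with 27% and chrII:15000001-15100000 with 23.0%. The block with the lowest median change was chrII:13100001-13200000 (-0.07).

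The innermost 300 kb, set apart after the values were seen, carried 81 of the 396 windows. There 27% of 300 windows were above 0.5 and the summed H3K27ac reads were 1.15-fold higher (1.13 to 1.16). The remaining 2852 windows had 11.0% above 0.5 and a 1.04-fold ratio (1.038 to 1.047), so the arm stayed above its centre without this stretch. The innermost part had fewer methyl mark reads than the rest, with medians of 135 against 143 scaled reads for H3K9me3 and 119 against 137 for H3K9me2. Over the WT control its median enrichments were nevertheless the higher, 0.31 against 0.11 for H3K9me3 and 0.17 against 0.06 for H3K9me2. Its controls were lower too, with medians of 108 against 136 scaled reads in WT and 120 against 137 in *met-2*. Outside the arm, the last 100 kb of the chromosome had 3.96% of windows above 0.5 and medians of 0.34 for H3K9me3 and 0.24 for H3K9me2.

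The limits of the arm followed the rule and not the marks, and single windows on either side cannot show whether there is a step. The windows on either side of the inner limit had 208 H3K9me3, 203 H3K9me2, 115 WT and 199 *met-2* H3K27ac reads outside and 244, 350, 110 and 213 inside. At the outer limit the last window inside had 185 H3K9me3, 182 H3K9me2, 94 WT and 222 *met-2* H3K27ac reads, and the next one outside had 131, 75, 52 and 86.

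Windows with fewer reads scatter more, and the arm had fewer H3K27ac reads, so arm and centre windows were also compared at the same H3K27ac level, the geometric mean of both genotypes in scaled reads plus 8. The arm had the larger share above 0.5 at each of the 6 levels. Under 64 the share was 20.8% of 207 arm windows and 11.5% of 174 centre windows, and from 64 to 90.5 it was 33.9% of 227 and 7.45% of 94. From 90.5 to 128 it was 19.4% and 7.21%, and from 128 to 181, where the arm had the most windows (1034), it was 10.9% and 2.62%. The shares were 5.02% and 0.966% from 181 to 256, and 1.06% (3 of 283 windows) and 0 of 1571 at 256 or more. The windows above 0.5 were therefore mostly windows of low and middling H3K27ac, while the median change in the highest group was -0.07 in the arm and -0.14 in the centre.

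**Figure D3:**
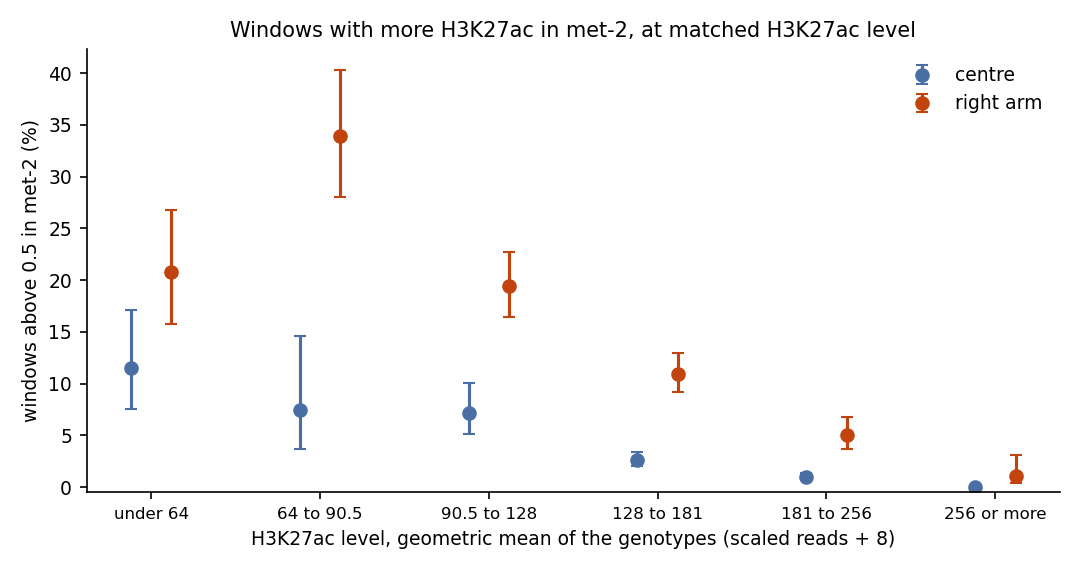
The percentage of windows with a log2 H3K27ac change above 0.5 in *met-2* (vertical axis) is plotted for 6 classes of H3K27ac level in scaled reads plus 8 (horizontal axis), for the right arm and the centre of chromosome II. Bars are 95% Wilson intervals that treat windows as independent, and the arm point lies above the centre point in each class, from 20.8% against 11.5% in the lowest to 1.06% against 0% in the highest.

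The 396 windows shared low reads in every library other than *met-2* H3K27ac. Their median was 82.0 scaled reads for WT H3K27ac, against 150 in the 2681 arm windows that lay between -0.5 and 0.5, a difference that the choice of the windows itself favours. For *met-2* H3K27ac the medians were 138 and 154. This library also entered the choice, which favours high values in it, so the nearness of these medians is not a separate result. In the libraries that did not enter the choice, H3K9me2 was 76.2 against 145, H3K9me3 was 108 against 148, the WT control was 68.7 against 141 and the *met-2* control was 96.0 against 144. The reads of H3K9me3 and H3K9me2 followed WT H3K27ac across arm windows (Spearman 0.78 and 0.55). The choice thus favours low values of these marks as well. Of the methyl marks H3K9me3 was the better retained, at 0.730 of the median of the other arm windows against 0.527 for H3K9me2 and 0.488 for the WT control. The 75 windows below -0.5 had medians of 135 for H3K9me3, 145 for H3K9me2 and 139 for the WT control, close to the other windows of the arm, but 110 in the *met-2* control.

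**Figure D4:**
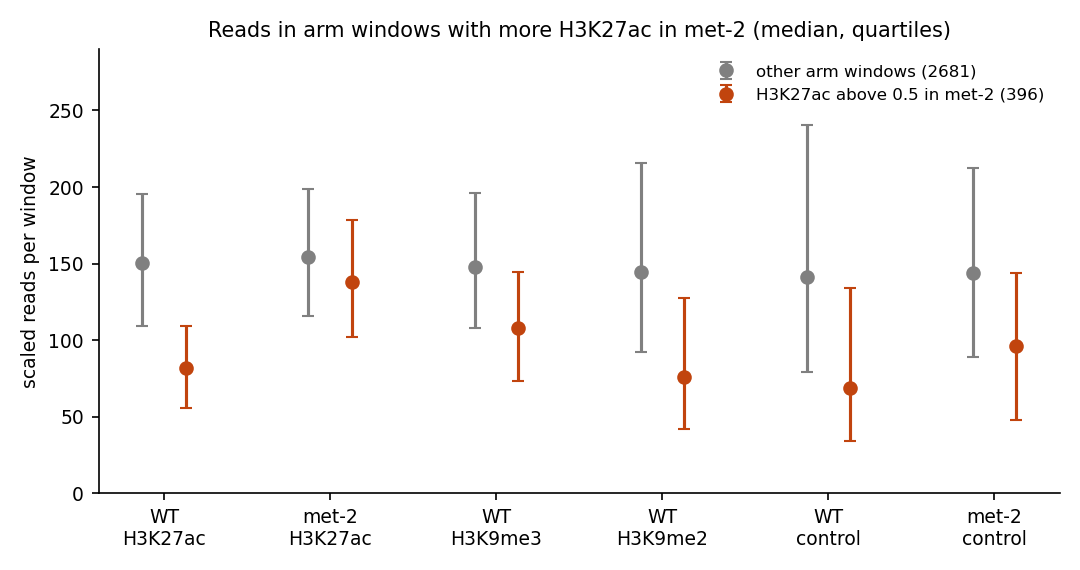
Scaled reads per 1 kb window of the right arm in each of the 6 libraries are plotted for the 396 windows with a log2 H3K27ac change above 0.5 in *met-2* and for the 2681 windows between -0.5 and 0.5, with points at the median and bars from the lower to the upper quartile. The medians of the 396 windows are lower in each library, from 68.7 against 141 in the WT control to 138 against 154 in *met-2* H3K27ac.

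The same relation appeared when arm and centre windows were ordered by the reads of a single library and divided at the quartiles. By H3K9me2 reads, 23.1% of the arm windows up to the lower quartile were above 0.5, and 4.83% of those over the upper quartile. By H3K9me3 reads the shares were 21.6% and 4.87%, by WT control reads 23.9% and 4.88%, and by *met-2* control reads 19.5% and 3.42%. The arm exceeded the centre in each of these groups, where the centre had 4.91% or less. Across arm windows the reads of both methyl marks followed WT H3K27ac (Spearman 0.78 for H3K9me3 and 0.55 for H3K9me2), which itself enters the change. This ordering therefore cannot show whether a methyl mark goes with more H3K27ac in *met-2*. Neither methyl mark could be told apart from the control in it.

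The share above 0.5 also differed with the methyl marks over the WT control. Of the 399 arm windows with H3K9me3 only, 103 (25.8%) had a change above 0.5. It was 106 of the 721 with both marks (14.7%), 27 of the 311 with H3K9me2 only (8.68%) and 160 of the 1721 with neither (9.30%). Over all windows of the genome these 4 shares were 13.1%, 8.47%, 3.97% and 5.12%, and in the centre they were 3.67%, 2.38%, 1.39% and 1.39%. Over both controls the order of the 4 classes was the same, with 21.7% of 235 windows for H3K9me3 only, 18.5% of 189 for both, 10.2% of 305 for H3K9me2 only and 11.5% of 2423 for neither. Over all windows of the genome the same 4 classes had 14.4%, 9.25%, 4.54% and 6.34% over both controls. In the centre they had 4.38%, 1.69%, 1.00% and 1.84%. In the arm each class thus had the larger share. The median WT control was low in the windows above 0.5, 68.7 scaled reads against 141, and its part in these shares was not tested.

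Windows with more H3K27ac in *met-2* also lay side by side in the arm. The 396 windows formed 280 runs, 26 of them with at least 3 adjacent windows and 99 windows in all, and 46.7% of them touched another such window. In the centre 7.14% of the 140 windows above 0.5 did so and no run reached 3 windows. A denser set of windows touches more often, so the difference in density enters these shares. The 75 windows below -0.5 in the arm formed 68 runs, the longest of 2 windows.

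The 3 longest of these runs lay in the innermost 300 kb. The run chrII:12230325-12237324, of 7 windows, went from 359 H3K27ac reads in WT to 1099 in *met-2*, a 1.78-fold ratio after scaling (1.58 to 2.01), with 914 H3K9me3, 702 H3K9me2, 185 WT control and 60 *met-2* control reads. The run chrII:12141326-12147325 went from 438 to 1401 reads (1.86-fold, 1.67 to 2.08), with H3K9me3 at 1.17 times the WT control and H3K9me2 at 0.640 times. The run chrII:12123326-12129325 went from 465 to 1346 reads (1.68-fold, 1.51 to 1.87), with H3K9me3 at 1.87 times and H3K9me2 at 1.29 times the WT control. Against the *met-2* control H3K9me3 was at 1.32, 0.911 and 0.912 times in these 3 runs in the same order, so the H3K9me3 excess of the second and the third depended on the control.

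The largest change of a single window was at chrII:12196326-12197325, with 50 H3K27ac reads in WT and 321 in *met-2*, a log2 change of 1.78 (1.47 to 2.36, the interval taken from the reads without the pseudocount). It had 196 H3K9me3 reads but 31 H3K9me2 reads, with 19 and 28 in the controls. Window chrII:15098299-15099298 went from 21 to 150 reads (1.77, 1.39 to 2.79), with 83 H3K9me3 and 13 H3K9me2 reads. Window chrII:12235325-12236324, within the longest run, went from 10 to 80 reads (1.69, 1.27 to 3.33), with 75 H3K9me3 and 43 H3K9me2 reads. These windows thus had more raw H3K9me3 than H3K9me2 reads, as the whole arm did in its medians of 240 and 191.

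Decreases were smaller. The lowest window, chrII:14000309-14001308, went from 57 H3K27ac reads in WT to 37 in *met-2*, a log2 change of -1.18 (-2.04 to -0.78). Window chrII:13422314-13423313 went from 31 to 23 reads (-0.92, -2.06 to -0.39) and chrII:14562304-14563303 from 72 to 61 (-0.90, -1.54 to -0.51), the latter with 379 H3K9me2 reads. The *met-2* library was the deeper one, so equal levels would have given it more reads.

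Over the MNase controls, the measure that follows the study's own normalization, the arm also exceeded the centre, but the controls set much of that value. The median change over controls was 0.09 in the arm and -0.26 in the centre, and 36.4% of arm windows were above 0.5 (24.2% in the centre and 28.2% of all windows) and 29.5% below -0.5 (40.8% in the centre and 36.7% of all windows). The median difference between the controls, *met-2* minus WT, was 0.00 in the arm and 0.20 in the centre. Across arm windows the change over controls had a Spearman correlation of -0.95 with that difference, which it contains by construction. With the controls exchanged between the genotypes, the arm lay 0.06 below the centre in place of 0.35 above, while the change from the reads alone uses no control.

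Among the 10 autosomal arms, each set against its own centre, the right arm of chromosome II was low in methylation over the WT control and in the upper part for the change in *met-2*. Its median H3K9me3 enrichment of 0.13 was the lowest of the 10, where the highest was 0.61 in the right arm of chromosome IV, and its arm-to-centre difference was the lowest for both H3K9me3 (-0.07) and H3K9me2 (-0.11). These ranks are over the WT control, in which this arm had the highest ratio of arm to centre reads of the 10. In its own reads the ratio ranked 4th for H3K9me2 (0.913) and 8th for H3K9me3 (0.873). With the *met-2* control the differences of this arm were above 0, at 0.12 for H3K9me3 and 0.09 for H3K9me2. H3K27ac over the control was lower in the arm than in the centre on all 10 arms, and the difference of -0.41 here ranked 8th from the highest. The control-free ratio of H3K9me3 to H3K27ac was above its centre on all 10, and here, with a difference of 0.29, it ranked 7th. The H3K27ac change from the reads was above that of the centre on all 10 arms, from 0.07 to 0.16, and the 0.14 here ranked 4th, as did the 12.6% of windows above 0.5, in a range from 7.61% to 15.1%. The share of windows below -0.5 was the lowest of the 10. The arms share the same 6 libraries and are no replicates of each other.

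**Figure D5:**
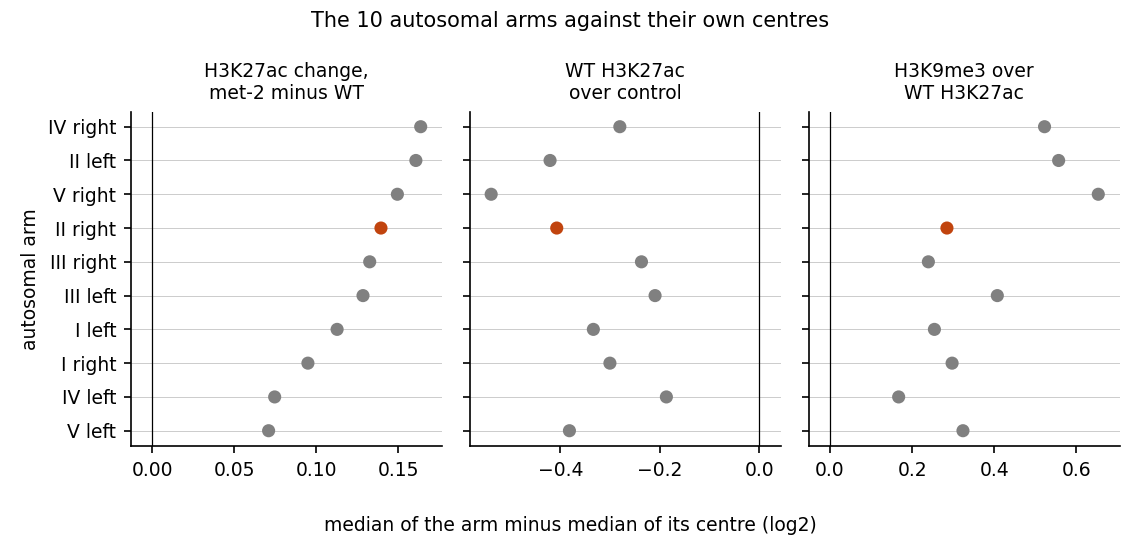
For each of the 10 autosomal arms, the median of the arm minus the median of its own centre is plotted on the log2 scale (horizontal axes) for the H3K27ac change from the reads, WT H3K27ac over the control and the ratio of H3K9me3 to WT H3K27ac. The right arm of chromosome II is the coloured point, at 0.14, -0.41 and 0.29, and all 10 arms lie on the same side of 0 in each panel.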

How the data were processed

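The deposited table held raw read counts, which the authors made per window of the ce10 assembly from 6 ChIC-seq libraries, 1 per group. Per their methods, reads were trimmed with Trimmomatic 0.39, aligned with bowtie2, deduplicated with a Bismark function and counted with QuasR irrespective of strand. The methods name narrower windows than the table holds. What was done with reads of several matches and with the molecular identifier was not given in the sources used here, so counts over repeats are uncertain.

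Each library of 2475550 to 28519008 reads was scaled to the average library size, as the authors did, 8 was added and log2 was taken. Arm and centre were compared by medians and shares of windows, with no p-value. Windows without reads in any library were left out. Intervals are 95% Wilson or exact, and the floor was 3 reads per library. Windows were named by rule as the 3 highest and the 3 lowest of each measure with at least 20 scaled reads, and runs as the 3 longest. The runs with more H3K27ac in *met-2* and the innermost 300 kb were singled out after their values were seen. The windows, measures and lists were chosen with earlier results of these data known. The functions were tested on simulated data. Alternatives were a pseudocount of 1, a minimum of 20 scaled reads, sums over 10 kb, a threshold of 1, the other, no or pooled controls, other borders, edgeR 4.0.16 TMM scaling, other totals and leaving out the innermost 300 kb, the pooled controls and the last of these chosen after seeing the data. Python 3.11.15, pandas 2.3.3 and scipy 1.17.1 were used. No ce10 annotation was used, so windows carry no gene names.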

Additional observations from a re-analysis of the deposited data

Results flagged for a closer look

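The H3K27ac change between *met-2* and WT ran in opposite directions in the arm and in the centre of chromosome II. From the reads alone the medians were 0.08 and -0.06 on the log2 scale, a difference of 0.14. Over the controls they were 0.09 and -0.26, a difference of 0.35. With 1 library per genotype the difference between arm and centre was not tested.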

How the results depend on the processing

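The difference between arm and centre in the H3K27ac change from the reads alone kept its direction and size under all 7 alternatives (0.13 to 0.15). Among them, TMM scaling and the other totals only rescale whole libraries. They shift arm and centre nearly alike, so they could hardly move this difference. With the MNase control of the other genotype, the difference between arm and centre became 0.116 for H3K9me3, 0.087 for H3K9me2, -0.063 for the H3K27ac change over controls and -0.155 for WT H3K27ac, and the shares were 29.3% for H3K9me3 and 59.9% for H3K9me2-enriched windows also enriched for H3K9me3. Without a control H3K9me3 differed by -0.172, H3K9me2 by -0.187 and WT H3K27ac by -0.465. Pooled controls gave 30.6% of windows enriched for H3K9me3 and 27.6% for H3K9me2. The causes were not tested. With counts summed to 10 kb the H3K9me3 difference was -0.152, the shares were 6.92% for H3K9me3, 11.6% for H3K9me2 and 40.5% for their overlap, and the shares with more and with less H3K27ac in *met-2* were 1.26% and 0%. A threshold of 1 gave 19.0%, 16.2%, 54.9%, 1.21% and 0.0317% for the same shares in the same order. A pseudocount of 1 gave 14.0% with more and 3.24% with less H3K27ac in *met-2*, and without the innermost 300 kb 11.0% had more. TMM scaling gave 26.3% for H3K9me3, 26.5% for H3K9me2 and 59.9% for the overlap. It moved the median over all windows, that of H3K9me3 by -0.28, of H3K9me2 by -0.16, of WT H3K27ac by -0.28 and of the change over controls by 0.18, so that the arm medians of H3K9me3, H3K9me2 and WT H3K27ac turned to -0.15, -0.09 and -0.21, and 42.0%, 43.1% and 39.4% of the arm windows beyond the threshold on either side were then enriched, against 56.8%, 53.0% and 54.0%. Of 71 values under alternatives, 43 stayed within the interval across windows, 25 moved and 3 turned. No paired analysis was possible because there was 1 library per group and no shared replicate number. The *met-2* control, with a median of 20 reads per arm window, limited every value over that control, and a share of a library under 3 reads could not be seen.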
